A study of Rattus norvegicus with 6 samples.

Results

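The genes described here are 8 genes of the renin-angiotensin system, namely Agt, Ace, Enpep, Mme, Agtr1a, Agtr2, Mas1 and Agtrap. They were selected by name, with earlier results of these data known. In the table of assembled linear transcripts, 27 of 70376 transcripts carried one of these names, and the 8 genes are 8 of 21210 gene names with at least 1 Ensembl transcript. Expression is given as FPKM (fragments per kilobase of transcript, scaled to the size of the library), which is a level per length, for each transcript and summed over all transcripts of a gene name. RNA was taken from the lungs of 3 control Sprague-Dawley rats and 3 bleomycin-induced pulmonary fibrosis (PF) model rats, with 1 library from each rat. The rats were 7 weeks old at the start, and the PF model rats were given bleomycin at 7 mg/kg once into the trachea, while the control rats were given saline. Lungs were collected 28 days later. The strain, age, dose and day are from the methods, since the labels name only control and model. Whole lung specimens were used, so every value is an average over all lung cell types, and fewer cells of a type and less RNA per cell cannot be told apart. The labels do not say whether rats shared a litter or a processing day. The p-values in limma set a group difference against the spread of these 6 libraries within their groups, partly pooled over all features tested.

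In the renin-angiotensin system, angiotensinogen, the product of Agt, is cleaved to angiotensin I. The peptidase encoded by Ace converts angiotensin I to the active peptide angiotensin II. Angiotensin II acts mainly through the pressor receptor encoded by Agtr1a, while Agtr2 and Mas1 encode receptors whose actions largely oppose it, and the peptidases encoded by Enpep and Mme trim or degrade the peptides. The lung is known for a high level of ACE on the surface of its capillary endothelium, and angiotensinogen in the blood comes mainly from the liver.

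The 27 transcripts together held an estimated 34127 to 45195.5 reads per library (from the coverage and length of each transcript, with reads of 150 bases). Markers of the lung were present in all 6 samples: the type 2 cell gene Sftpc lay between 2410 and 4146 FPKM, and the type 1 cell gene Ager between 273 and 412 FPKM. Of a list of 10 fibrosis genes, 9 had a mean difference above 0 in the PF model, beside 9159 of all 19203 genes tested. Timp1 was below 0 (-0.22), and Tgfb1 was at 0.0074. None of the 10 passed the thresholds used for a call, as against 1.53% of all genes. The collagen gene Col3a1 alone reached an unadjusted p of at most 0.05 in limma, as against 4.90% of all genes. It was at 169 ± 13.1 FPKM in control and 208 ± 22.3 FPKM in PF model lungs (SD, n = 3 each).

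By FPKM summed over the gene name, Ace was the highest of the 8 genes. In control lungs the mean FPKM was 85.1 for Ace, 29.9 for Mme, 12.2 for Enpep, 10.6 for Agtr1a, 6.65 for Agtrap, 2.93 for Mas1, 1.18 for Agt and 0.0262 for Agtr2. Of the neighbours in this order, the control values of Agtrap and Mas1 and of Mas1 and Agt overlapped, and those of the other neighbours did not. Over all 6 samples the values of Enpep and Agtr1a overlapped as well. Most reads of Ace lay in assembled transcripts. Its Ensembl transcripts held an estimated 2627 to 4878 reads per library, of 26015 to 34205 over all its transcripts. For Mme these were 2944 to 4030 of 3235 to 4444. The order of Ace and Mme with Ensembl transcripts only was not determined. Several transcripts that carry the name of a member belong to another assembled locus. They lie on the opposite strand, inside an intron or beyond the end of the gene, or overlap it on the same strand. When transcripts were joined by assembled locus instead, which leaves these out, Mas1 fell below Agt (0.300 against 1.15 FPKM), with no overlap of the control values.

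**Figure D1:**
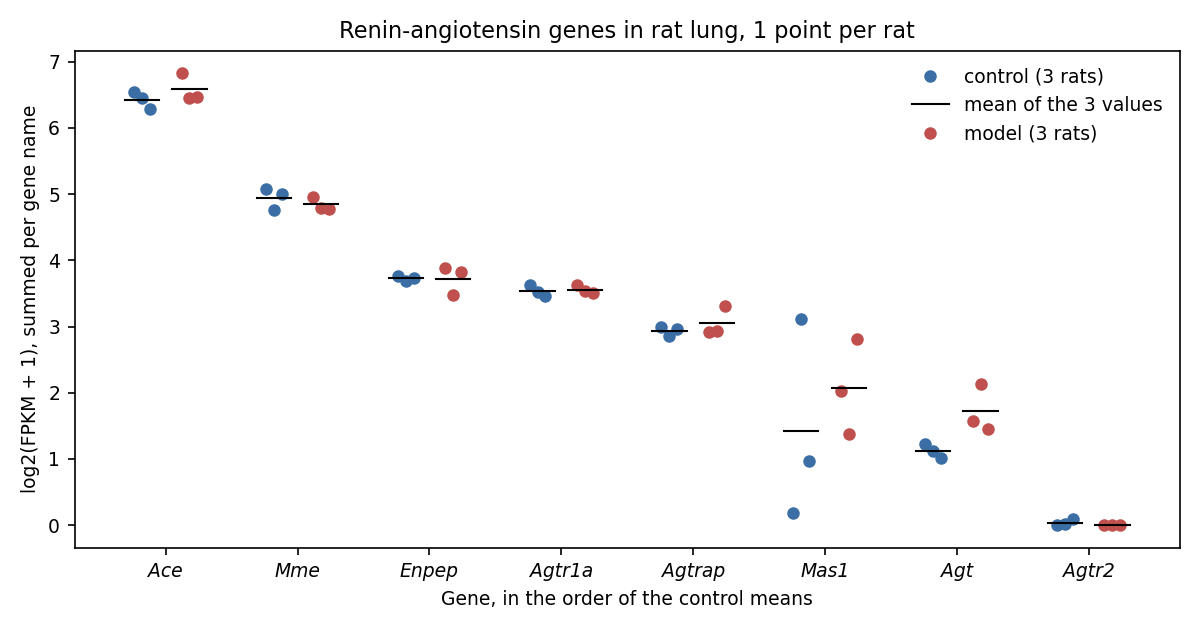
Summed FPKM of each of the 8 genes in each rat on the log2(FPKM + 1) scale, with control rats in blue, PF model rats in red and a bar at the mean of the 3 values. Control and PF model points lie side by side for Ace, Mme, Enpep, Agtr1a and Agtrap, the points of Mas1 spread over a wide range in both groups, the 3 PF model points of Agt lie above the 3 control points, and Agtr2 lies at or close to 0.

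The comparison of PF model with control lungs asked which of these genes changed after bleomycin. A gene was called where the unadjusted p was at most 0.05 in limma on log2(FPKM + 1) and the mean FPKM of the groups differed by at least 1 log2 unit. Of the 8 genes, 7 were above 0 in at least 3 samples and were tested, and 1, Agt, was called, as higher in the PF model. Over all 19203 genes tested, 1.53% were called, 0.687% as higher in the PF model. Called genes were higher in the PF model in 45.1% of cases, and in 58.4% after rescaling to TPM (FPKM rescaled to the same total in every sample). None of the 7 reached an adjusted p below 0.05 (the lowest Benjamini-Hochberg adjusted p was 0.934), as against 0.0104% of all genes, and Agt alone reached an unadjusted p of at most 0.05, as against 4.90% of all genes. The median difference of the 7 genes was 0.12 on the log2(FPKM + 1) scale, beside -0.0064 over all genes, with 5 above 0 and 2 below. Control and PF model values did not overlap for 1 of the 7 genes, as against 10.7% of all genes. Of the 27 transcripts, 23 were tested and 0 were called, beside 2.98% of all 64867 transcripts tested. The lowest unadjusted p in limma among these 23 was 0.150, while 4.53% of all transcripts were at or under 0.05, and 0 of the 23 had non-overlapping groups, as against 10.4%. None reached an adjusted p below 0.05, which 0.0277% of all transcripts did. At the transcript level the median difference was 0.12 on the same scale, with 16 above 0 and 7 below, beside -0.0238 over all transcripts.

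Agt, which encodes the precursor of all angiotensin peptides, was the only tested member whose groups did not overlap, and its call depended on 1 PF model rat and on a transcript from the opposite strand. The summed FPKM of Agt was 1.33, 1.19 and 1.02 in control 1 to 3 and 1.96, 3.39 and 1.75 in PF model 1 to 3. All 3 PF model values lay above all 3 control values, and PF model 2 was the highest. The mean was 1.18 ± 0.157 in control and 2.37 ± 0.895 in PF model lungs (SD, n = 3 each), a log2 ratio of means of 1.01, just past the threshold of 1. The difference on the log2(FPKM + 1) scale was 0.60 (95% interval 0.12 to 1.08), with an unadjusted p of 0.0216 and an adjusted p of 0.934 in limma. The exact permutation test gave p = 0.1 (two-sided), the smallest value that 3 rats against 3 allow. Without PF model 2 the difference was 0.39 and the log2 ratio 0.66, so the gene was no longer called. It was also not called without control 2 (unadjusted p = 0.0520 in limma) or without control 3 (unadjusted p = 0.0644 in limma).

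Agt was represented by the annotated transcript ENSRNOT00000024917, with 5 exons on the minus strand at chr19:57321640-57333433, and by the assembled transcript MSTRG.18137.3, with 2 exons and 292 bases on the plus strand at chr19:57322025-57322739. Coordinates are those of the deposited tables, whose genome build is not given in the sources used here. The annotated transcript was 1.32, 1.10 and 1.02 FPKM in control 1 to 3 and 1.69, 1.25 and 1.71 FPKM in PF model 1 to 3. These groups overlapped, since PF model 2 lay below control 1. The means were 1.15 ± 0.154 and 1.55 ± 0.263 FPKM (SD, n = 3 each), the difference was 0.25 (95% interval -0.05 to 0.54) and the unadjusted p was 0.0866 in limma when transcripts were joined by assembled locus, a fit in which 1.40% of 18534 genes were called. In the transcript fit the same difference had a 95% interval of -0.14 to 0.64 and an unadjusted p of 0.171 in limma. The unadjusted p in limma was 0.148 with Ensembl transcripts only and 0.125 with the most abundant transcript of each gene. An estimated 91.0 to 158.7 reads per library lay behind the annotated transcript.

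The antisense transcript MSTRG.18137.3 was 0.0143, 0.0812 and 0 FPKM in control 1 to 3 and 0.271, 2.15 and 0.0346 FPKM in PF model 1 to 3. It made up 63.3% of the Agt sum in PF model 2 and at most 13.8% in the other samples. In reads this is an estimated 27.6 reads in PF model 2 and at most 3.83 in any other library, and 3 reads correspond to between 0.210 and 0.241 FPKM for this short transcript. It shares an assembled locus with Cog2, a Golgi tethering complex gene on the same strand, and ends within 11 bases of the Cog2 isoform MSTRG.18137.1. That isoform was 1.92, 1.41 and 3.48 FPKM in control 1 to 3 and 1.81, 0 and 2.73 FPKM in PF model 1 to 3, listed at 0 in the library where the antisense transcript was highest. The sum of both ranged from 1.49 to 3.48 FPKM in control and from 2.08 to 2.76 FPKM in PF model lungs, with overlapping groups. With transcripts weighted by their length, which gives the short antisense transcript less weight, the difference of Agt was 0.30 with an unadjusted p of 0.0113 in limma and a log2 ratio of 0.54, so it was not called. The library kit is described as stranded, but the sources used here do not state that strand was used in the quantification, so reads of the antisense transcript, of Cog2 and of Agt cannot be fully told apart.

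**Figure D2:**
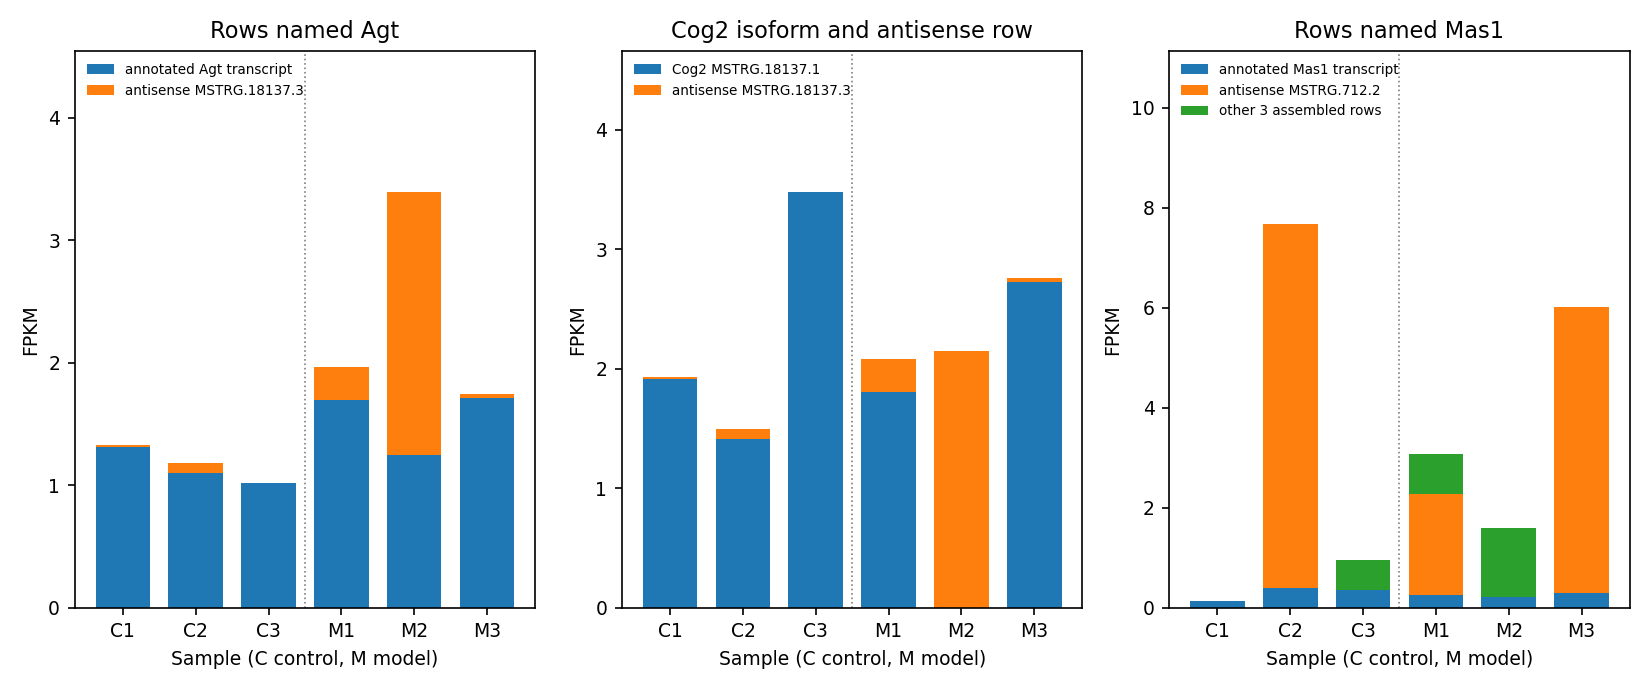
FPKM per rat (C1 to C3 control, M1 to M3 PF model), stacked by transcript, for the transcripts named Agt (left), for the Cog2 isoform beside the antisense transcript (middle) and for the transcripts named Mas1 (right). The antisense transcript forms most of the Agt bar in PF model 2, where the Cog2 isoform is listed at 0, and the antisense transcript MSTRG.712.2 forms most of the tallest Mas1 bars, in control 2 and PF model 3.

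Of 3 hepatocyte markers, Apoa1 and Ttr were found and Alb was not analysed here. Their sum was at most 0.184 FPKM in control and 0.137 FPKM in PF model lungs, with Ttr listed at 0 in 5 of the 6 samples. As a description, the 3 genes of mean FPKM at least 1 whose centred log2(FPKM + 1) lay closest to that of Agt over the 6 samples were Atp5mc2, Rpl7a and P2ry6, with mean absolute differences of 0.0404, 0.107 and 0.113 among 13889 genes. They encode an ATP synthase subunit, a ribosomal protein and a nucleotide receptor. They were matched to the summed Agt values, of which the antisense transcript made up 63.3% in PF model 2, whereas the annotated transcript had its lowest PF model value, 1.25 FPKM, in that library.

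Ace, the enzyme that forms angiotensin II and degrades bradykinin, was not called. Its summed FPKM was 92.0, 86.4 and 76.9 in control 1 to 3 and 112.1, 86.3 and 87.4 in PF model 1 to 3. PF model 1 was higher than every control, while PF model 2 and 3 lay within the control range. The means were 85.1 ± 7.67 and 95.3 ± 14.6 FPKM (SD, n = 3 each), and the difference of 0.15 on the log2(FPKM + 1) scale had a 95% interval of -0.16 to 0.47 and an unadjusted p of 0.275 in limma. Of 6 endothelial markers, Cdh5, Tek, Vwf and Emcn were found, and their sum ranged from 227 to 351 FPKM in control and from 278 to 313 FPKM in PF model lungs. Much of the range of this sum came from Vwf, at 77.2 to 179 FPKM in control and 117 to 152 FPKM in PF model lungs. The difference was 0.37 for Vwf, and -0.04 for Cdh5, -0.03 for Tek and -0.19 for Emcn. None of these 4 markers was called.

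Ace and Agtr2 stand at the top and bottom of the order of levels, and the 250 bases before their start sites are shown to set the upstream sequence of these extremes side by side. The sequences are from RefSeq (GRCr8), in which 7 of the 8 genes had an entry, with Ace at chr10:91409879-91410128 on the plus strand and Agtr2 at chrX:116914070-116914319 on the plus strand. Capitals mark the GC box GGGCGG and the TATA box TATAAA on either strand, overlapping matches included. A GC box was found in 30.5% and a TATA box in 12.9% of 33469 promoters of the same length.
Ace: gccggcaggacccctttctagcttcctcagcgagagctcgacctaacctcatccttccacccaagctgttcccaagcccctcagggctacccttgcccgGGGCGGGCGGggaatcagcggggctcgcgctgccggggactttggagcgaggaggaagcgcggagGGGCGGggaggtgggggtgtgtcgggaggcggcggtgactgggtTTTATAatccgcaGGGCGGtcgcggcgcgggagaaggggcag
Agtr2: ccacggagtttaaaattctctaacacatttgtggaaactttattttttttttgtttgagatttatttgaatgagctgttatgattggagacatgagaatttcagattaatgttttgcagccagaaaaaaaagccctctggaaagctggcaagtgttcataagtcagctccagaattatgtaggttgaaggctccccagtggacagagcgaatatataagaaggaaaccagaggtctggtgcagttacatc
The Ace window held 4 GC boxes and, on the minus strand, 1 TATA box and had a GC content of 69.2%. The Agtr2 window held 0 exact matches of either motif and had a GC content of 38%, beside a median of 51.2% over all promoters. Near matches, such as the stretch tatataag in the Agtr2 window, were not counted, so the counts do not show that a window lacks a TATA element. Another motif, the CAAT box CCAAT on either strand, was found 0 times in the Ace window and 1 time in the Agtr2 window, and in 34.0% of all promoters. The contrast between these extremes did not run through the order of levels. Enpep, the third in level, had 0 matches of any of the 3 motifs and a GC content of 45.2%, while Mme had 2 GC boxes and the highest GC content, 70.4%. Agtr1a had 2 GC boxes and 1 TATA box, Agtrap 1 GC box and 1 CAAT box, and Mas1 no match. The Ace window precedes its RefSeq start site, while the transcripts summed for Ace start from chr10:94160570 to chr10:94188674 in the deposited coordinates. Which of these starts the window precedes was not determined. These matches describe the letters of the windows and were not compared with a measured binding.

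The 8 transcripts of Ace showed larger swings between rats than their sum. The long isoform MSTRG.6755.1 was 9.31, 34.4 and 33.5 FPKM in control 1 to 3 and 4.35, 25.7 and 29.9 FPKM in PF model 1 to 3. Its near copy MSTRG.6755.2 was 25.7, 0 and 0 FPKM in control 1 to 3 and 32.6, 8.60 and 0 FPKM in PF model 1 to 3. The transcript MSTRG.6755.2 was thus high exactly where MSTRG.6755.1 was low, in control 1 and PF model 1. Both have 23 exons and the same end, their starts differ by 27 bases and their lengths by 29 bases. They are 13598 and 13569 bases long, as against 3424 bases for the annotated transcript ENSRNOT00000010627 with 22 exons. Their sum was 35.0, 34.4 and 33.5 FPKM in control 1 to 3 and 37.0, 34.3 and 29.9 FPKM in PF model 1 to 3. The sum varied by far less than either isoform, and the groups overlapped. How reads were split between such near-identical isoforms is uncertain.

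The shorter annotated transcript ENSRNOT00000092961, with 10 exons at chr10:94177889-94187822, held 36.8% to 47.0% of the Ace sum in every rat, the largest share in 5 of the 6 libraries. It was 39.3, 36.7 and 29.2 FPKM in control 1 to 3 and 52.7, 34.0 and 32.2 FPKM in PF model 1 to 3, so the groups overlapped. The annotated transcript with 22 exons, ENSRNOT00000010627, lay between 0.345 and 1.65 FPKM. MSTRG.6755.7, with 6 exons at the end of the gene, lay between 8.52 and 12.0 FPKM, and MSTRG.6752.1, a single exon of 202 bases beyond the end of the gene, lay between 2.82 and 6.45 FPKM. In PF model 3, MSTRG.6755.3 reached 9.74 FPKM, as against 1.17 to 1.58 FPKM in the controls and 2.36 and 1.21 FPKM in PF model 1 and 2, and MSTRG.6755.4 was 3.02 FPKM there and listed at 0 in the other 5 libraries. The largest absolute difference among the tested Ace transcripts was 1.20, for MSTRG.6755.2, with a 95% interval of -3.29 to 5.68.

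Enpep encodes aminopeptidase A, which shortens angiotensin II. Its summed FPKM was 12.5, 11.9 and 12.3 in control 1 to 3 and 13.7, 10.1 and 13.1 in PF model 1 to 3. Both the highest and the lowest value were PF model samples, and the means of 12.2 ± 0.334 and 12.3 ± 1.93 FPKM differed by less than the spread between rats (SD, n = 3 each). The difference was -0.0059 on the log2(FPKM + 1) scale (95% interval -0.30 to 0.29, unadjusted p = 0.963 in limma), and its sign turned positive with TPM, median of ratios or length-weighted values. The annotated transcript ENSRNOT00000087062, with 20 exons at chr2:233667254-233743866, was 4.21, 0 and 6.97 FPKM in control 1 to 3 and 6.44, 7.85 and 6.30 FPKM in PF model 1 to 3. MSTRG.20794.1, which has 19 exons and shares its lower coordinate, was 5.05, 9.47 and 3.26 FPKM in control 1 to 3 and 4.36, 0.319 and 3.87 FPKM in PF model 1 to 3. One of the pair was near its highest value where the other was near or at 0, in control 2 and PF model 2. Together they were 9.27, 9.47 and 10.2 FPKM in control 1 to 3 and 10.8, 8.17 and 10.2 FPKM in PF model 1 to 3, with overlapping groups. Counting the annotated transcript alone gave Enpep a difference of 1.18 (95% interval -0.73 to 3.09 in the transcript fit), which rests on the value listed at 0 in control 2. The remaining transcript, MSTRG.20794.3, lay between 1.92 and 3.28 FPKM.

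Mme encodes neprilysin, a membrane peptidase that cleaves angiotensin peptides, bradykinin and other small peptides. Its summed FPKM was 32.7, 26.0 and 31.0 in control 1 to 3 and 30.1, 26.8 and 26.4 in PF model 1 to 3. All 3 PF model values lay within the control range. The means were 29.9 ± 3.45 and 27.8 ± 2.01 FPKM (SD, n = 3 each), and the difference was -0.10 (95% interval -0.36 to 0.16, unadjusted p = 0.385 in limma). The annotated transcript ENSRNOT00000042576, with 20 exons at chr2:153830586-153880738, held 72.2% to 79.9% of the sum in every rat. It lay between 19.3 and 25.3 FPKM, the second annotated transcript ENSRNOT00000088565 between 3.48 and 5.18 FPKM, and MSTRG.19741.3 between 1.20 and 2.74 FPKM, with overlapping groups for each.

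**Figure D3:**
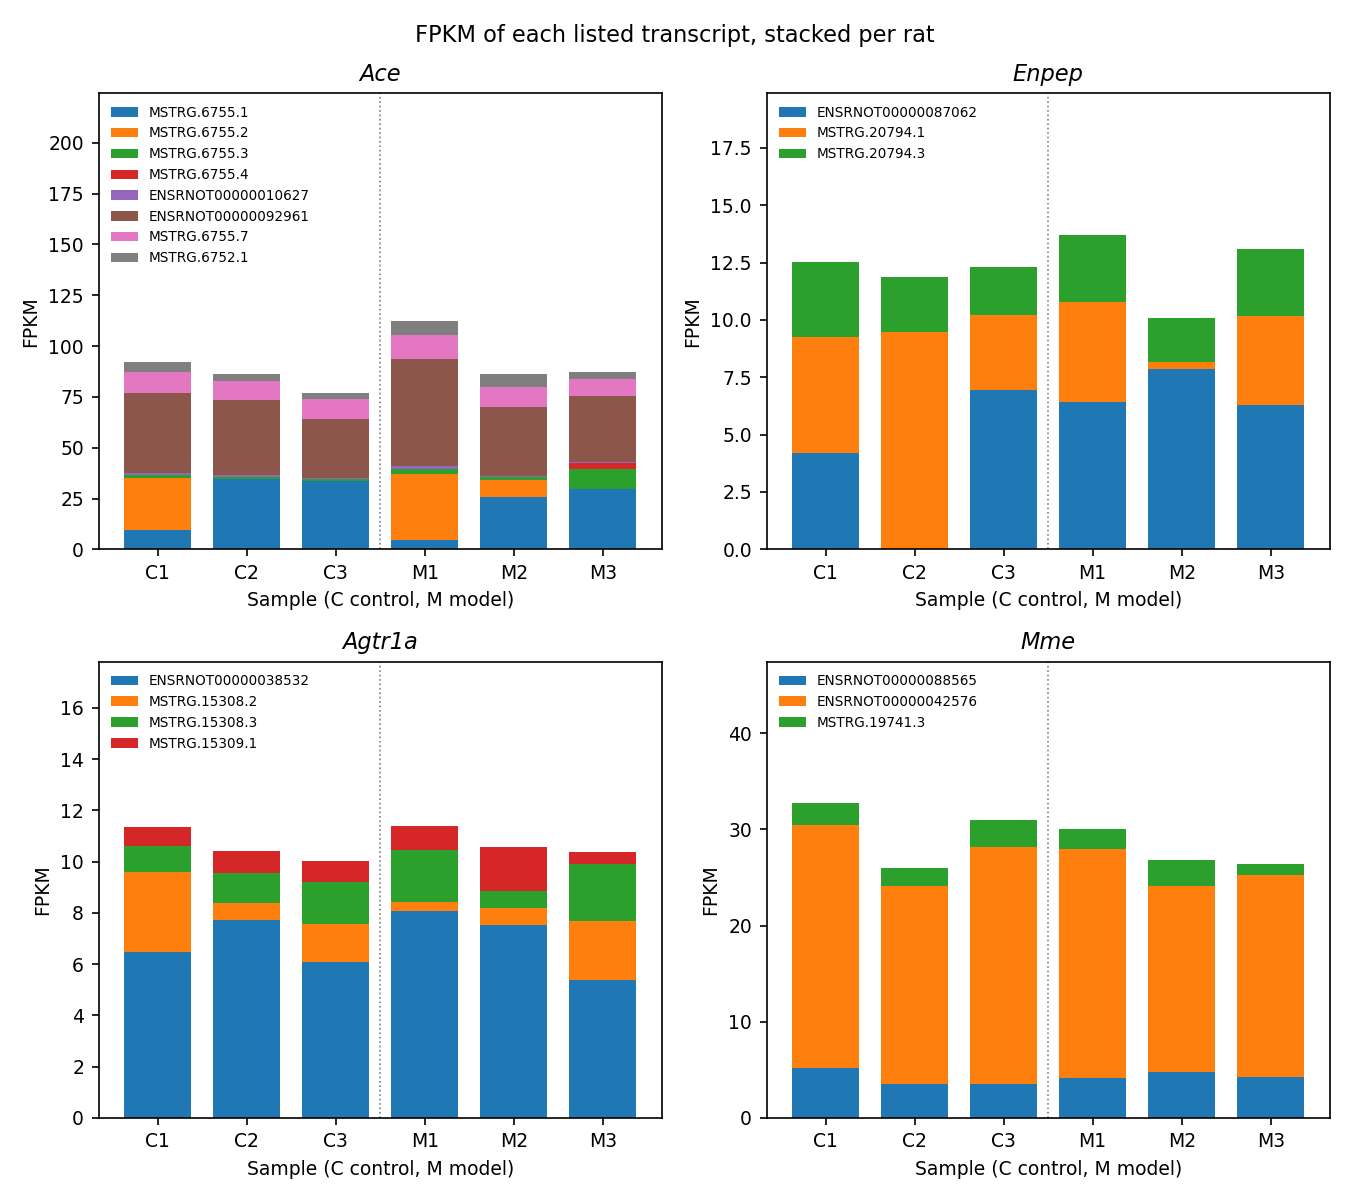
FPKM of each transcript of Ace, Enpep, Agtr1a and Mme, stacked per rat (C1 to C3 control, M1 to M3 PF model), so that the height of a bar is the summed FPKM of the gene. The sums differ little between groups, while MSTRG.6755.1 and MSTRG.6755.2 of Ace, and ENSRNOT00000087062 and MSTRG.20794.1 of Enpep, replace each other from rat to rat.

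Among the receptors, Agtr1a, the main receptor of angiotensin II in the rat, had nearly level values in the 6 rats. It was 11.4, 10.4 and 10.0 FPKM in control 1 to 3 and 11.4, 10.6 and 10.4 FPKM in PF model 1 to 3. The values of the 2 groups interleaved, with means of 10.6 ± 0.694 and 10.8 ± 0.551 FPKM (SD, n = 3 each). The difference was 0.02 with a 95% interval of -0.19 to 0.23 (unadjusted p = 0.807 in limma), and it was -0.0080 when transcripts were joined by assembled locus. The annotated transcript ENSRNOT00000038532, with 3 exons at chr17:35907108-35958077 on the minus strand, was 6.45, 7.71 and 6.09 FPKM in control 1 to 3 and 8.08, 7.53 and 5.36 FPKM in PF model 1 to 3, or 51.7% to 74.0% of the sum. The assembled isoforms MSTRG.15308.2 and MSTRG.15308.3 lay between 0.352 and 3.15 FPKM and between 0.668 and 2.22 FPKM. MSTRG.15309.1, which lies inside an intron of the gene, lay between 0.457 and 1.71 FPKM, highest in PF model 2. All of these overlapped between groups. The sum of 4 pericyte and smooth muscle markers, Pdgfrb, Cspg4, Rgs5 and Myh11, ranged from 76.4 to 96.2 FPKM in control and from 75.9 to 103 FPKM in PF model lungs.

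Agtr2, the second angiotensin II receptor, was at the limit of detection. Its single transcript ENSRNOT00000074269, at chrX:119390013-119393842, was 0, 0.0159 and 0.0626 FPKM in control 1 to 3 and listed at 0 in all 3 PF model samples. These values correspond to an estimated 0, 2 and 9 reads in the control libraries, and 3 reads correspond to between 0.0209 and 0.0239 FPKM. Agtr2 was above 0 in 2 of 6 samples, so it was not tested and no fold change is given, and a difference was not detectable at this depth. Such limits cover counting error only.

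Mas1 encodes the receptor of a shortened angiotensin peptide. Its summed FPKM was 0.142, 7.68 and 0.959 in control 1 to 3 and 3.08, 1.60 and 6.01 in PF model 1 to 3. The control samples held both the lowest and the highest value, with means of 2.93 ± 4.14 and 3.56 ± 2.25 FPKM (SD, n = 3 each) and an unadjusted p of 0.431 in limma. The difference of 0.65 had a 95% interval of -1.20 to 2.50. It became 1.49, with an unadjusted p of 0.0214 in limma and a log2 ratio of 2.70, without control 2. Mas1 was then called in place of Agt, so the members called still numbered 1. The annotated transcript ENSRNOT00000020100, with 4 exons on the plus strand at chr1:48077033-48108216, was 0.142, 0.394 and 0.365 FPKM in control 1 to 3 and 0.252, 0.223 and 0.294 FPKM in PF model 1 to 3. All 3 PF model values of this transcript lay within the control range, and joined by assembled locus the difference was -0.04 (95% interval -0.26 to 0.17, unadjusted p = 0.640 in limma). It was supported by an estimated 13.1 to 35.6 reads per library.

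The remainder of the Mas1 sum came from 4 assembled transcripts, of which 3 lie on the opposite strand and MSTRG.713.1 overlaps the gene on the same strand. The antisense transcript MSTRG.712.2, of 17281 bases at chr1:48087906-48151345, was 0, 7.29 and 0 FPKM in control 1 to 3 and 2.03, 0 and 5.72 FPKM in PF model 1 to 3. It was listed at 0 in 3 libraries and made up as much as 95.1% of the Mas1 sum in the others. The other 3 ranged from 0 to 0.707 FPKM. Other transcripts of the assembled locus of MSTRG.712.2 lie on the same strand as it, start beyond the end of the annotated Mas1 transcript and do not carry its name. Of these, MSTRG.712.5 ranged from 11.2 to 12.5 FPKM, MSTRG.712.4 from 0.572 to 8.06 FPKM, MSTRG.712.7 from 0 to 7.29 FPKM, MSTRG.712.6 from 0.0109 to 2.32 FPKM and ENSRNOT00000085710 from 0.0944 to 0.125 FPKM, with overlapping groups for each.

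Transcripts that are listed at 0 in some rats and abundant in others were not rare in the table. Among tested transcripts with a mean of at least 0.5 FPKM, 3 of the 20 that carry a member's name were listed at 0 in 1 or more samples, namely MSTRG.6755.2 of Ace, ENSRNOT00000087062 of Enpep and MSTRG.712.2 of Mas1. The share was 8.75% of 53948 such transcripts overall.

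Agtrap encodes a protein that binds the tail of the AT1 receptor and promotes its uptake from the cell surface. Its single transcript ENSRNOT00000011747, with 5 exons at chr5:164886813-164898420, was 6.93, 6.22 and 6.82 FPKM in control 1 to 3 and 6.59, 6.61 and 8.94 FPKM in PF model 1 to 3. PF model 3 was above all controls, and PF model 1 and 2 lay within the control range. The means were 6.65 ± 0.380 and 7.38 ± 1.35 FPKM (SD, n = 3 each), and the difference of 0.12 (95% interval -0.21 to 0.45, unadjusted p = 0.407 in limma) was -0.0087 without PF model 3. In the same library the summed FPKM of the 3 cardiac muscle markers Myh6, Actc1 and Tnnt2 was 23.5. It was 5.89 to 10.3 in the controls, and the lowest value in the PF model was 5.69. Myh6 was 5.11 FPKM in PF model 3 and at or near 0 in the others, while Actc1 lay between 5.18 and 13.8 FPKM in every library. The source of this RNA, and whether it adds to the Agtrap value, were not tested.

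**Figure D4:**
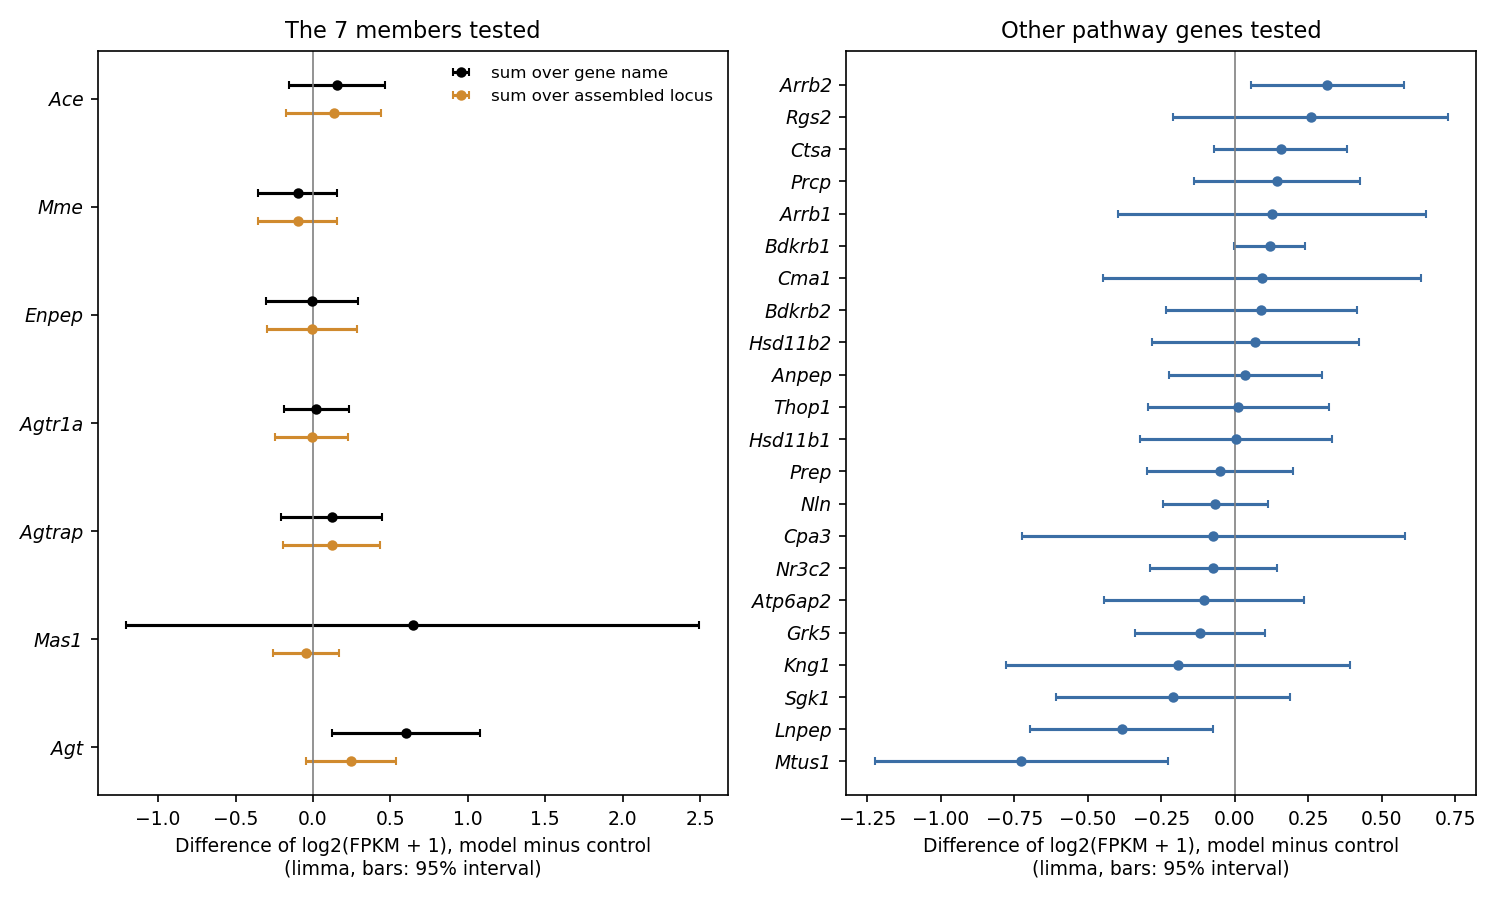
Difference of log2(FPKM + 1) between PF model and control with its 95% interval from limma, for the 7 members tested (left; black, summed by gene name; orange, joined by assembled locus) and for the 22 other genes of the pathway tested (right). The interval of Agt lies above 0 by gene name and includes 0 by assembled locus, Mas1 narrows from a wide interval to one around 0, and on the right the intervals of Arrb2, Lnpep and Mtus1 exclude 0.

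Other genes of the renin-angiotensin and kallikrein-kinin systems were taken from a list of 28 names, of which 24 were in the table and 22 were tested. The genes Ctsg, Klk1, Kng2 and Cyp11b2 were not analysed here. In limma, 0 of the 22 were called, and 3 had an unadjusted p of at most 0.05, 1 of them higher in the PF model and 2 lower, as against 2.16% and 2.73% of all genes. Summed by gene name, groups did not overlap for 5 of the 22, 2 higher and 3 lower, beside 4.86% and 5.83% of all genes. Lnpep and Nln, among the lower genes, overlapped when joined by assembled locus. The median difference of the list was 0.0076. Of the names fixed for the text, Anpep, aminopeptidase N, was at 57.0 ± 7.34 FPKM in control and 58.2 ± 2.41 FPKM in PF model lungs (SD, n = 3 each). Atp6ap2, an accessory protein of the vacuolar proton pump, was at 13.0 ± 1.80 and 12.0 ± 1.83 FPKM (SD, n = 3 each). Agtr1b, the second rat gene of the AT1 receptor, was 0.0632 FPKM in control 1 and listed at 0 in the other 5 samples.

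The 3 pathway genes at an unadjusted p of at most 0.05 were named after their values were seen. Mtus1, which encodes a protein that binds the AT2 receptor, was 28.2, 47.4 and 45.1 FPKM in control 1 to 3 and 25.1, 20.2 and 25.0 FPKM in PF model 1 to 3. Every PF model value was below every control value, and the difference was -0.73 with an unadjusted p of 0.0113 and an adjusted p of 0.934 in limma. Lnpep, the insulin-regulated aminopeptidase that binds angiotensin IV, went from 26.6 ± 4.09 to 20.0 ± 1.61 FPKM and Arrb2, an arrestin of activated receptors, from 6.82 ± 0.287 to 8.75 ± 0.998 FPKM (SD, n = 3 each), also without overlap. None of the 3 reached a log2 ratio of 1, and their adjusted p in limma was 0.934. Joined by assembled locus, Lnpep ranged from 15.9 to 23.5 FPKM in control and from 12.7 to 16.2 FPKM in PF model lungs. Its groups then overlapped (unadjusted p = 0.0196 in limma), while those of Mtus1 and Arrb2 still did not.

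Back-splice reads from the same libraries gave a second readout of these loci, with 2037 to 2964 reads in all per library. Circular RNAs from 3 members were found. The Ace circle of 2 exons at chr10:94172444-94173418 had 2, 2 and 0 reads in control 1 to 3 and 0, 1 and 1 reads in PF model 1 to 3. Enpep had 1 circle with 1 read, in PF model 3, and Mme had 1 circle with 1 read, in control 1. All were under the minimum of 10 reads and were not among the 226 circRNAs tested with edgeR, so a difference was not detectable at this depth.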

How the data were processed

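Tables of lung RNA from 3 control and 3 PF model rats were used, grouped by their labels. Reads were trimmed with Cutadapt and mapped by the authors with Bowtie2 and Tophat2 (the submitters' notes also name HISAT2), and StringTie assembled the transcripts of all samples (the build is not given in the sources used here). The deposited FPKM per transcript were estimated by the authors with StringTie and Ballgown. The deposited coverage per base, a signal not normalized for depth, gave read estimates. The authors deposited circRNA counts of back-splice reads (CIRCexplorer). Their SRPBM signal was not used.

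Genes with FPKM above 0 in at least 3 of 6 samples were compared with limma 3.58.1 (trend, two-sided) on log2(FPKM + 1) in R 4.3.3. Fold changes on this scale understate the change of low genes. All genes entered 1 fit with Benjamini-Hochberg adjustment. CircRNAs with at least 10 reads were tested with edgeR 4.0.16 (TMM) and, as an alternative, DESeq2 1.42.0. The tests were checked on simulated data. Figures were drawn with matplotlib 3.10.9.

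The members and gene lists were chosen with earlier results of these data known. Named were all 8 members, their transcripts of mean FPKM at least 0.5 in either group, every called gene of the pathway list and 3 fixed names of it (2 further names of this list are not reported here), and the 3 genes closest to the member with the smallest p. The labels give no pairing of rats by replicate number. Pseudocounts, filters, scalings, gene sums, the test, a replicate block and single libraries left out were varied as alternatives.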

Additional observations from a re-analysis of the deposited data

How the results depend on the processing

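Ace and Mme kept the sign of their difference under all 20 alternatives and were called under none of them. Agt kept its sign under all 20 and its call under 12. It was not called with length-weighted sums, Ensembl transcripts only, the most abundant transcript, transcripts joined by assembled gene identifier or an adjusted p below 0.05, which each left 0 members called. The members called numbered 0 to 1 over the fits that leave out a single library, with Mas1 called in place of Agt without control 2, and 0 called without control 3 or without PF model 2. The members joined by assembled gene identifier had 3 differences above 0 in place of 5, since Agtr1a was -0.0080 and Mas1 -0.0439 there. Mas1 was also -0.0439 with Ensembl transcripts only. Enpep turned positive with TPM (0.0748), median of ratios (0.00099), TPM without small RNAs (0.0414), length weights (0.0059), and Ensembl transcripts only or the most abundant transcript (1.18 each). Its transcript MSTRG.20794.3 turned positive with TPM (0.0605), median of ratios (0.0244) and TPM without small RNAs (0.0336). With single libraries left out, the difference ranged over -0.0842 to 0.12 for Enpep, -0.0156 to 0.0693 for Agtr1a and -0.0087 to 0.19 for Agtrap, and for transcripts over -0.0764 to 1.16 for Mas1 MSTRG.712.2, -0.11 to 0.13 for Enpep MSTRG.20794.3, -0.0856 to 0.14 for Ace MSTRG.6755.7, -0.18 to 0.27 for Ace ENSRNOT00000010627, -0.0676 to 0.19 for Agtr1a ENSRNOT00000038532, -1.09 to 0.30 for Ace MSTRG.6755.1, -0.0702 to 0.28 for Ace ENSRNOT00000092961, -0.10 to 0.34 for Agtr1a MSTRG.15309.1, -0.0108 to 0.46 for Agtr1a MSTRG.15308.3, -0.32 to 0.0439 for Mme MSTRG.19741.3 and -0.0087 to 0.19 for Agtrap ENSRNOT00000011747. Between 10 and 15 transcripts of the members were then above 0. The cause of these turns was not tested.

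The pathway list had 1 call, Bdkrb1, with a pseudocount of 0.1, no filter, TPM, median of ratios or length weights. It had 2, Bdkrb1 and Mtus1, with Ensembl transcripts only or the most abundant transcript. Bdkrb1 lay close to 0, at 0.0427 ± 0.0370 FPKM in control and 0.132 ± 0.0314 FPKM in PF model lungs (SD, n = 3 each). Of all 19203 genes, 326 were called with that pseudocount, 332 with TPM, 295 with median of ratios and 287 with length weights. With no filter, 322 of 21210 genes were called, and with the most abundant transcript 433 of 19149. Over all genes, 293 calls became 80 at a mean FPKM of at least 1, 519 with Ensembl transcripts only and 2 at an adjusted p below 0.05. Over all transcripts, 1934 calls became 1066 and 18 under the first and last of these. With the replicate block, 311 genes and 1943 transcripts were called, 1 of them a member gene, and the unadjusted p of Agt was 0.0259 in limma. The labels give no pairing by replicate number. Same-numbered rats correlated at 0.0766, 0.0327 and -0.0722 in their deviations from the group means. Different-numbered rats correlated at -0.140 to 0.102. With 3 rats per group, these correlations cannot show whether same-numbered rats shared a litter or a processing day.

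Depth limited Agtr2, the annotated Mas1 transcript and the circRNAs. No member circRNA was tested with edgeR or DESeq2, which gave 13 and 5 circRNAs with an unadjusted p of at most 0.05 among 226.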
